A study of Homo sapiens with 25 samples.

Results

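The histone mark H3K4me3 was compared between untreated and THC-treated HEC-1A cells, an established human endometrial adenocarcinoma line with epithelial features. The members are 6 CUT&RUN peak lists, 3 untreated and 3 from cells given 20 µM THC, out of 25 samples in the series, of which 24 have files used here. All groups used below carry the genotype label WT. The untreated H3K4me3 group received no agent named in its labels and no vehicle is named, and the THC H3K4me3 group received 20 µM THC (delta-9-tetrahydrocannabinol, the main psychoactive cannabinoid) for a time the labels do not give. The other groups used are 3 RNA-seq and 3 ATAC-seq libraries each of untreated cells, of cells given 20 µM THC for 24 h and of cells given 20 µM THC for 72 h. The labels call the libraries biological replicates of this 1 cell line and say nothing of separate cultures, so p-values measure how far these libraries differ from each other, which can be technical variation.

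H3K4me3 is trimethylation of lysine 4 on histone H3. It sits at the starts of transcribed genes and at CpG-rich promoters, is written by SET1 and MLL (KMT2) complexes and is removed by KDM5 demethylases. At active genes it often spreads downstream of the start, and broad domains are known from strongly or persistently transcribed genes. In CUT&RUN an antibody guides a nuclease to the mark and the released DNA is sequenced.

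Peaks of the 6 lists on chromosomes 1 to 22 and X were merged where they overlapped, which gave 47473 regions. A region was present in a library where any of its peaks lay in it, and its width in that library was the number of its bases covered by those peaks. Peak lists hold no read counts, so presence and width were the measures compared. A gene was placed at a region that came within 1000 bp of its start.

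The promoters below belong to genes whose H3K4me3 region was wider in all 3 THC libraries than in any untreated library. CHAC1, CEBPG, DDIT3 and SESN2 are shown because they belong to the integrated stress response, a program in which the factors ATF4 and CHOP induce amino acid and survival genes and whose widths are described below. HERPUD1, of the unfolded protein response, is shown as a gene outside that list with the same letters as CHAC1. RefSeq promoter sequence (GRCh38.p14) is given 5′ to 3′ on the gene's strand, upstream of the annotated start. In the first 3, capitals mark the letters TGATGNAA or their reverse complement, the composite element that CHOP and ATF4 are known to bind. In the last 2, capitals mark the copy of CCAAT or its reverse complement, the CCAAT box bound by NF-Y, that lies nearest upstream of the start; the DDIT3 stretch holds another copy left in lower case.

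CHAC1: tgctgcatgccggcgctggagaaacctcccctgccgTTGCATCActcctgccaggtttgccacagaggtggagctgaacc
CEBPG: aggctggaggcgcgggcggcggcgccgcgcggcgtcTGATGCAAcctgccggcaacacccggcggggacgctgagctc
HERPUD1: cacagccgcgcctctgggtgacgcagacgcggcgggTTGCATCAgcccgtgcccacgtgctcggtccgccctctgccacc
DDIT3: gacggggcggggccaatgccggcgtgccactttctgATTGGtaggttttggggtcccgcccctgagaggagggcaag
SESN2: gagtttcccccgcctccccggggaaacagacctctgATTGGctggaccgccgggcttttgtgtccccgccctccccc

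These stretches lie at chr15:40953226-40953305 (CHAC1, plus strand), chr19:33374035-33374112 (CEBPG, plus), chr16:56931930-56932009 (HERPUD1, plus), chr12:57520550-57520626 (DDIT3, minus) and chr1:28259396-28259472 (SESN2, plus). The capitals begin 209, 42, 176, 76 and 86 bases upstream of the respective starts. CHAC1 encodes a glutathione-degrading enzyme, CEBPG a bZIP partner of ATF4, HERPUD1 a factor of endoplasmic reticulum-associated degradation, DDIT3 the factor CHOP, and SESN2 a leucine sensor upstream of mTORC1.

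The 6 lists were alike in size. The untreated libraries held 33470, 33885 and 33850 peaks and the THC libraries 30098, 34573 and 35879. The means were 33735 ± 230 and 33517 ± 3032 (SD, n = 3 each), and an exact two-sided permutation test gave p = 1, where the smallest p this design allows is 0.1. Peaks covered 61, 61.2 and 61.8 Mb untreated and 56.7, 62.2 and 66.1 Mb with THC (exact permutation p = 0.9). THC replicate 1 had the shortest list and THC replicate 3 the longest, so the THC libraries enclosed the untreated ones on both measures. The share of covered bases common to a pair of lists out of all bases covered by either had a median of 76.1% between untreated libraries, 76.2% between THC libraries and 75.2% across the groups. Of 20 epithelial and endometrial carcinoma genes, 18 lay at a region present in all 6 libraries, among them KRT7, KRT18 and ESRP1. The same held for 0 of 10 endothelial genes, 1 of 12 stromal genes (COL1A1, which encodes a collagen chain) and 2 of 14 immune genes (CD68, whose region also holds the start of EIF4A1, and SPI1).

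Most H3K4me3 was common to both groups, and regions present in 1 group alone were small and weak. Of the 47473 regions, 22662 (47.7%) were present in all 6 libraries and 12342 (26%) in 1 library alone. Called gained here are 305 regions (0.642%) that had a peak in 3 of 3 THC libraries but in 0 of 3 untreated ones, and called lost are 184 regions (0.388%) of the opposite kind. Gained regions had a median width of 791 bp and lost regions of 864 bp, against 2542 bp for regions of all 6. The highest −log10 q from the authors' peak caller, taken per region in each library with a peak there, had medians of 5.7 and 5.38, against 56.1. A gene start lay within 1000 bp of 14.4% of gained, 12% of lost and 53.9% of common regions. The 11980 regions outside these classes and not in 1 library alone had a median width of 811 bp and a median −log10 q of 5.88. Of them 8.92% had a gene start, and of regions in 1 library alone 5.8%. Small width and low q were thus not particular to gained and lost regions. With 3 against 3 libraries an exact test of presence in 1 region cannot go below p = 0.1, so presence carries no test. With 1 library left out, fewer libraries have to be alike: gained regions then numbered 941 without THC replicate 1, the shortest list, and 420 to 523 without each of the others, and lost regions numbered 250 to 515, the highest without untreated replicate 1.

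**Figure D1:**
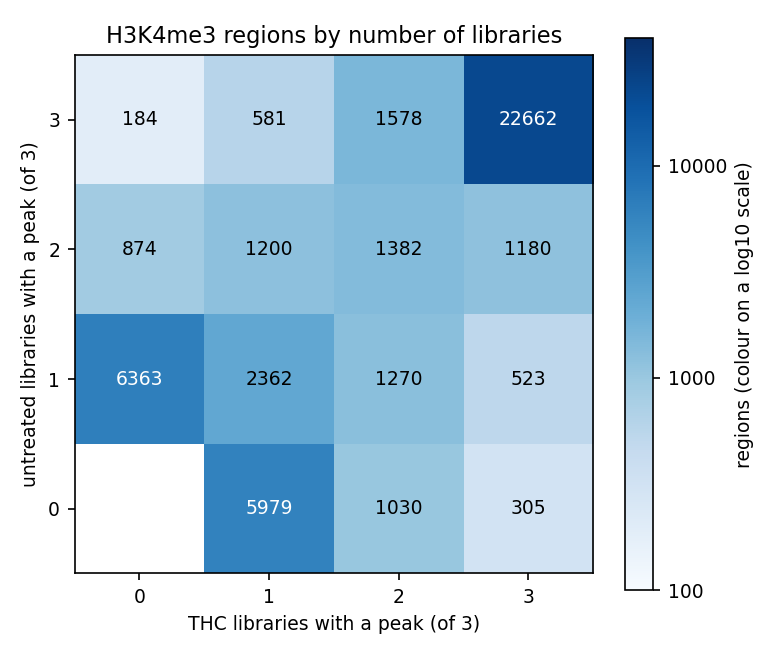
Number of H3K4me3 regions by how many of the 3 untreated libraries (vertical axis) and how many of the 3 THC libraries (horizontal axis) had a peak in them, with colour on a log10 scale. The corner for all 6 libraries holds 22662 regions, and the corners for 1 group alone hold 305 (THC) and 184 (untreated).

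Few gene starts took or lost the mark outright. Of 38146 gene symbols with a position, 15472 (40.6%) had a peak within 1000 bp in all 6 libraries and 21156 (55.5%) in none. For 32 symbols (0.0839%) all 3 THC libraries but no untreated library had one, and for 16 (0.0419%) the reverse held. With the start itself required to be covered these counts were 51 and 7, and with a window of 5000 bp they were 54 and 26.

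Among the 8 longest gained regions with a gene start, the one at WIPF3, which encodes a regulator of actin assembly, lay at chr7:29806125-29807625. It was covered over 644, 1340 and 1086 bp in the THC libraries and not at all in the untreated ones. WIPF3 RNA was 0.85 ± 0.0747 TPM (a length-scaled measure of transcript abundance, SD, n = 3) untreated, 1.08 ± 0.0846 TPM at 24 h and 1.63 ± 0.151 TPM at 72 h. The change at 72 h was +0.50 on the log2(TPM + 1) scale (limma, adjusted p = 0.000628). At KCNG1, which encodes a modifying subunit of voltage-gated potassium channels, the region at chr20:51022284-51023530 had 626, 1057 and 857 bp with THC. KCNG1 RNA was 1.2 ± 0.451 TPM untreated, 1.91 ± 0.322 TPM at 24 h and 5.7 ± 0.94 TPM at 72 h, and it rose by 1.62 on that scale at 72 h (limma, adjusted p = 9.59e-06). At both regions an ATAC-seq peak was already listed in 3 of 3 untreated libraries.

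The highest −log10 q values of these 8, 12.1 to 15.7, belonged to a region at an end of TTPAL, a relative of the vitamin E transfer protein. It had 576, 898 and 947 bp with THC, while the region at the other end of TTPAL was present in all 6 libraries at nearly equal mean widths of 2574 and 2577 bp. The others lay at SH3RF3, LINC01655, LOC124901786, LOC105372212 and an internal start of FOXP1, a forkhead factor whose main start lay at a region of all 6. The strand of KCNG1 and TTPAL was not given in the tables used, so both ends of such genes counted as possible starts. The 3 longest gained regions without a gene start were at chr1:235917181-235918869, chr10:102300001-102301393 and chr1:94544254-94545918, with 980, 1503 and 1243 bp in the THC libraries at the first.

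The 8 longest lost regions with a possible gene start lay at 5 uncharacterised or long non-coding loci (LINC01014, LOC105379340, LOC124900169, LOC105375282 and LOC107986283) and at RUBCNL, SLC17A1 and B3GALT4. For LOC105379340 and B3GALT4 the strand was not given, so the region lay at a gene end that may not be the start. The B3GALT4 region was 837 bp from a region of all 6. At LINC01014 (chr3:178420169-178422025) the untreated libraries had 1004, 369 and 1544 bp and the THC libraries none. SLC17A1, which encodes a phosphate and urate transporter, had 521, 763 and 727 bp untreated and no ATAC-seq peak in any of the 9 libraries. Its RNA, 0.685 ± 0.0321 TPM untreated and 0.0264 ± 0.0229 TPM at 24 h, was below the level needed for testing. At RUBCNL the lost region lay 596 bp from a region of all 6, which also had a RUBCNL start within 1000 bp. The 3 longest lost regions without a gene start were at chr4:177189713-177191311, chr3:71837177-71838675 and chr9:90607579-90608940.

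RNA was tested over 13753 genes with a mean of at least 1 TPM. At 24 h 25% of them rose and 51.7% fell, and at 72 h 40.1% rose and 33% fell (limma, adjusted p below 0.05). Both times share the untreated libraries, and RNA is said below to rise or fall only where it passed this test. With RNA centred on library medians, rises made up 49.1% of all calls at 24 h instead of 32.5% and 47.1% at 72 h instead of 54.7%. Of 50 genes at gained regions 17 could be tested; 6 rose and 6 fell at 24 h, and 8 rose and 5 fell at 72 h. Of 23 genes at lost regions 3 could be tested. Chosen for their RNA change, the gained regions with the largest ones were at KRT13, NUPR1, SLC23A3, HCFC1 and KCNG1. Except at SLC23A3 the strand was not given, so the region lay at a gene end that may not be the start. KRT13, a keratin of stratified epithelia, had a gained region at one end while its RNA fell from 5.38 ± 0.373 to 1.47 ± 0.219 TPM at 24 h and 0.0942 ± 0.0501 TPM at 72 h (limma, adjusted p = 8.53e-09 at 72 h). SLC23A3, an ascorbate transporter relative, rose from 0.775 ± 0.0972 to 4.41 ± 0.463 TPM at 72 h (limma, adjusted p = 2.20e-07) and had 749, 375 and 853 bp of H3K4me3 with THC against none untreated. The lost regions chosen in this way included those at BCAR1 and ZBTB45, and both genes also had a region of all 6 whose groups overlapped.

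Open chromatin separated gained from lost regions less than it separated both from common ones. An ATAC-seq peak of untreated cells lay in 47.2%, 37.7% and 47.2% of gained regions and in 42.4%, 33.2% and 41.8% of lost regions, against 89%, 85.2% and 89.1% of common regions. At 24 h of THC the shares were 43.6%, 39.7% and 50.8% for gained and 25%, 28.3% and 34.8% for lost regions, against 84.2%, 82.7% and 87.6%. At 72 h they were 33.1%, 21.3% and 45.6% for gained, 19.6%, 13% and 29.9% for lost and 79.2%, 64.3% and 86.2% for common regions. Lost regions were thus lower than gained regions in each of the 9 libraries, and the 72 h libraries differed from each other by more than the groups did for common regions. No ATAC-seq peak of any library lay in 33.1% of gained, 46.7% of lost and 6.2% of common regions. Common regions were also much wider, and any overlap with an ATAC-seq peak counted. The 11980 regions outside these classes and not in 1 library alone had a median width of 811 bp, near that of gained and lost regions. Their shares were 47.6%, 39.3% and 48.4% untreated, 38.3%, 37.3% and 45.1% at 24 h, and 31%, 17.7% and 41.9% at 72 h. Low shares were thus not particular to gained and lost regions. In RefSeq promoters at these regions the median GC content was 64.2% (32 promoters at gained), 50.3% (12 at lost) and 65.7% (13112 at common regions), against 58.7% over all 34961 promoters of the table.

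**Figure D2:**
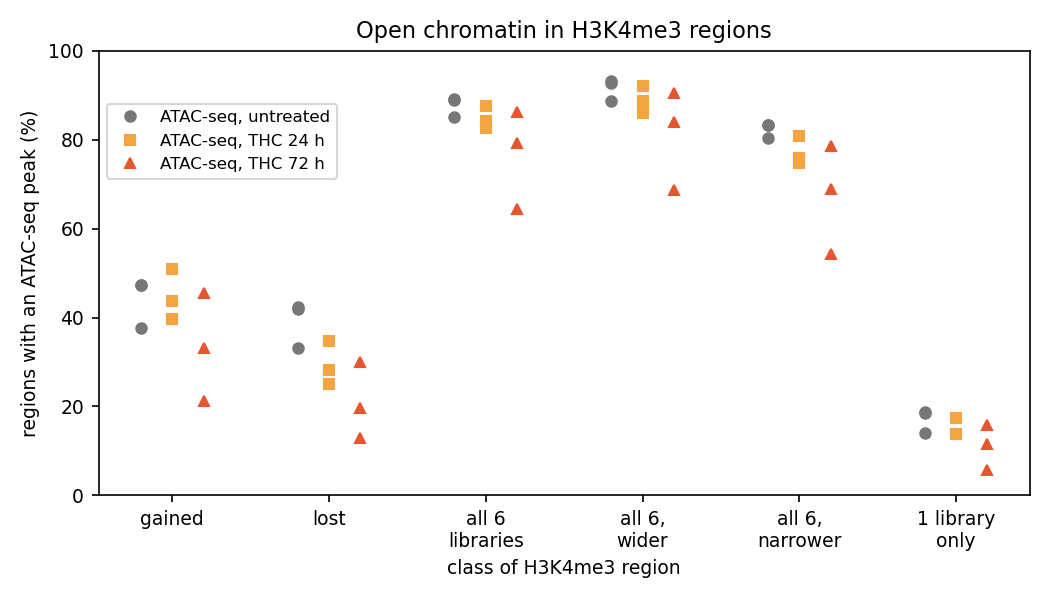
Share of H3K4me3 regions with an ATAC-seq peak (vertical axis, %) for each class of region, 1 point per ATAC-seq library of untreated cells and of cells given THC for 24 h or 72 h. Lost regions lie between 13% and 42.4% and gained regions between 21.3% and 50.8%, below the regions of all 6 libraries.

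Width gave no call over the 22662 regions of all 6 libraries. With limma on log2 width, 0 regions were wider and 0 narrower at an adjusted p of 0.05 (0% in each direction), and 1707 (7.53%) had an unadjusted p under 0.05. A descriptive rule was then added after seeing this: a region is called wider where all 3 THC widths exceed all 3 untreated widths, and narrower in the reverse case. It held for 1775 regions (7.83%) and 1160 regions (5.12%). An exact two-sided test of such a separation in 1 region cannot go below p = 0.1. Some regions therefore meet the rule by the order of the libraries alone, and neither share was tested against that. Counted over the 15688 genes at regions of all 6, 1418 (9.04%) lay at a wider and 558 (3.56%) at a narrower region. With widths scaled to equal library medians the gene counts were 1085 and 682, and the region shares were 6.61% and 6.43%. Without THC replicate 1, 4208 regions were wider and 1747 narrower, and without THC replicate 3 the counts were 2373 and 3086, so the balance between the directions turned with the library left out.

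Wider regions were gene-start regions more often than narrower ones, 64.4% against 38.4%, with 53.9% over all regions of the 6 libraries. Their highest −log10 q, taken per region in each library, had a median of 85.5 against 28.2 for narrower regions. The median promoter GC content was 68.7% at wider and 64.3% at narrower regions.

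When the width was taken from the longest single peak in each library instead of all covered bases, limma called 34 regions wider and 5 narrower. SLC7A5, which encodes the LAT1 leucine transporter, led the wider ones at +1.34 on the log2 scale (adjusted p = 0.0075). The others with a named gene included LIFR, a cytokine receptor (+1.28, adjusted p = 0.0256), TYRO3, a receptor tyrosine kinase (+1.09, adjusted p = 0.0104), VEGFB (+1.11, adjusted p = 0.0426), CEBPG (+0.75, adjusted p = 0.0369) and SEPHS1, a selenophosphate synthetase relative (+0.87, adjusted p = 0.0103). Of the 5 narrower regions, 2 held gene starts: one with GCN1 and RPLP0 (−0.80, adjusted p = 0.0256) and one with ENO3, PFN1, RNF167 and SLC25A11 (−0.82, adjusted p = 0.0103). The largest difference among these 34 and 5 calls was a narrowing of −1.82 at chr7:141001467-141004188, with no gene start (adjusted p = 0.0168). This measure also moves when 1 long peak is called as several short ones.

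The 10 largest differences of each kind, among regions with a mean width of at least 1000 bp at a start of known strand and a tested gene, were chosen after the values were seen and carry no call. TRPM8, a cold- and menthol-sensitive cation channel, stood first at chr2:233975999-233979194. Its region measured 731, 1386 and 955 bp untreated and 1669, 1830 and 2522 bp with THC, a difference of 1.00 ± 0.259 (SE) on the log2 scale (limma, adjusted p = 0.516). TRPM8 RNA rose from 7.88 ± 1.17 to 20.7 ± 2.07 TPM at 24 h and 15.8 ± 1.73 TPM at 72 h (limma, adjusted p = 2.88e-06 and 3.99e-05), and none of the 9 ATAC-seq lists had a peak in the region. CORO2B, an actin-binding coronin, had 1019, 814 and 924 bp against 1233, 2002 and 1874 bp, and its RNA rose from 0.692 ± 0.0131 to 8.49 ± 0.433 TPM at 72 h (limma, adjusted p = 1.67e-09). ENTREP1 had 495, 763 and 897 bp against 1360, 1369 and 1321 bp, and its RNA rose from 1.02 ± 0.257 to 4.94 ± 0.457 TPM at 72 h (limma, adjusted p = 5.84e-07). RBPMS2, an RNA-binding protein, had 710, 732 and 1243 bp against 1669, 1445 and 1684 bp while its RNA fell by 0.98 on the log2(TPM + 1) scale at 24 h (limma, adjusted p = 1.94e-06). Of the remaining 6, the RNA of MELTF, THSD4 and YPEL3 rose at 72 h and that of CDK5R1 fell at 24 h. ADORA2B, an adenosine receptor, passed at neither time, and MPDZ RNA was 11.1 ± 0.495, 8.5 ± 1.76 and 9.65 ± 0.561 TPM untreated, at 24 h and at 72 h.

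CDC20, the activator of the anaphase-promoting complex, had the largest narrowing, in a region at chr1:43356852-43364182 that it shares with CDC20-DT. Widths were 6395, 5538 and 5637 bp untreated and 4100, 3838 and 3600 bp with THC, and the groups lay far apart. The difference was −0.61 ± 0.0778 (SE) on the log2 scale, with an unadjusted p of 4.48e-05 and an adjusted p of 0.197 (limma). CDC20 RNA was 345 ± 2.44 TPM untreated and 356 ± 7.8 TPM at 24 h, and it fell to 191 ± 9.64 TPM at 72 h (limma, adjusted p = 4.46e-08), while CDC20-DT rose from 4.11 ± 0.401 to 10.4 ± 1.18 TPM at 72 h. The others were ECPAS, DHODH, MRI1, TENT5B, ASNSD1, CDS2, LINC00513 and LINC-PINT. LINC00513 and LINC-PINT share 1 region of 32632, 32748 and 30884 bp untreated and 16653, 24496 and 29657 bp with THC. DHODH, the mitochondrial enzyme of pyrimidine synthesis, had 3221, 3414 and 2948 bp against 1966, 2361 and 2594 bp. The CDS2 region also holds the start of PCNA, the replication clamp, with 5369, 5070 and 4850 bp against 3669, 3734 and 4461 bp.

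Of 23 gene lists examined, the integrated stress response had the largest share of members at wider regions. Of its 25 genes 23 lay at a region of all 6 libraries. Of these 12 (52.2%) were wider and 1 was narrower, against 9.04% and 3.56% of all genes. In limma 10 had an unadjusted p under 0.05 and 0 passed the adjusted test. Each gene was read at its region of largest mean width. NUPR1, a member not counted as wider, also had a gained region at an end of unknown strand. That region had 363, 741 and 720 bp with THC. The list's median width difference was +0.182 on the log2 scale against +0.019 over all 15688 genes. The list was chosen with the RNA response known: 20 of its 23 tested members rose and 1 fell at 24 h, and 22 rose and 0 fell at 72 h. Among all 13753 tested genes 25% rose and 51.7% fell at 24 h, and 40.1% rose and 33% fell at 72 h. Under each alternative run (higher q, joined peaks, lists of equal length, longest peak, a width minimum, scaled medians and each library left out) between 10 and 15 of these genes were wider and 1 or 2 narrower. The shares over all genes moved as well, from 6.92% with scaled medians to 18.1% without THC replicate 1 for wider and from 3.53% with a −log10 q of at least 10 to 10.7% without THC replicate 3 for narrower. In those first 2 settings 47.8% and 56.5% of the list's genes were wider.

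Of the 3 amino acid transporter genes 2 were wider. SLC7A5 at chr16:87867831-87872005 measured 2703, 2945 and 3157 bp untreated and 4102, 4084 and 3718 bp with THC. The lowest THC library exceeded the highest untreated one by more than the range within the untreated group, and the difference was 0.44 ± 0.0819 (SE) on the log2 scale (limma, adjusted p = 0.404). Its RNA rose from 25.9 ± 1.67 to 81.5 ± 7.31 TPM at 24 h and 62.6 ± 4.73 TPM at 72 h. SLC7A11, the cystine importer, measured 2882, 3172 and 2927 bp against 3745, 3722 and 4489 bp (0.41 ± 0.091, adjusted p = 0.46), with RNA rising from 11.4 ± 0.921 to 19.3 ± 0.921 and 33.9 ± 2.17 TPM. SLC3A2, the heavy chain both transporters pair with, was not separated. Its region, shared with SNHG1, had 8676, 9789 and 8597 bp against 8436, 8810 and 9621 bp, although its RNA rose from 103 ± 11.7 to 1482 ± 4.38 TPM at 24 h.

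Among the transcription factors, DDIT3 (CHOP) at chr12:57517335-57525200 had 6440, 6517 and 6528 bp untreated and 7751, 7293 and 7156 bp with THC. Its RNA rose from 26.8 ± 0.829 to 673 ± 34 TPM at 24 h and 481 ± 15.9 TPM at 72 h, and its region also holds the start of MBD6. CEBPB had 3026, 3405 and 3450 bp against 4541, 4258 and 3666 bp. CEBPG had 4346, 3762 and 4371 bp against 4378, 4629 and 4667 bp, so its groups lay side by side with no overlap. ATF4, the factor whose translation starts this response, was not separated, with 7345, 7101 and 7333 bp against 6651, 6676 and 7647 bp. ATF3, a stress-induced repressor whose RNA rose from 1.41 ± 0.0308 to 63.4 ± 3.94 TPM at 24 h, had no region within 1000 bp of the start used.

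The targets were mixed. Wider were DDIT4, an mTORC1 inhibitor (4529, 4359 and 3800 bp against 5077, 4649 and 6069 bp), GDF15, a stress cytokine (3483, 3903 and 3934 bp against 4213, 4329 and 4800 bp), SESN2 (2890, 2635 and 2485 bp against 2940, 3107 and 3381 bp) and CHAC1 (2467, 2611 and 2721 bp against 3122, 3075 and 2892 bp). STC2, a secreted glycoprotein, CTH, the cystathionine-cleaving enzyme, and VLDLR, a lipoprotein receptor, were wider too. CTH and VLDLR were not wider with widths scaled to equal library medians. STC2 was not wider with a −log10 q of at least 10 or with the longest peak. DDIT4 and GDF15 were not wider with peaks within 500 bp joined, and GDF15 was not without THC replicate 3. VLDLR RNA fell at 24 h, from 29.9 ± 0.903 to 14.1 ± 0.418 TPM (limma, adjusted p = 2.45e-08), and CTH RNA was 3.76 ± 0.242, 4.02 ± 0.237 and 4.88 ± 0.772 TPM. PPP1R15A (GADD34, which restores translation) was not separated, at 6465, 6896 and 5666 bp against 6237, 5947 and 6548 bp, although its RNA rose from 39.5 ± 2.15 to 822 ± 11.8 TPM at 24 h. XPOT, the tRNA exporter, was the narrower member, with 3806, 3777 and 3770 bp against 3425, 3626 and 3508 bp, while its RNA rose from 109 ± 8.05 to 213 ± 4.41 TPM at 72 h. Over the 18 members whose start was covered in all 6 libraries, the mark reached a median of 2121 bp downstream of the start untreated and 2614 bp with THC, and 1488 and 1474 bp upstream. The median of the differences per gene was +263 bp downstream and +142 bp upstream. Over all 11576 such genes the downstream medians were 1850 and 1875 bp, the upstream medians 1449 and 1492 bp, and the median differences per gene +19.7 and +20 bp.

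**Figure D3:**
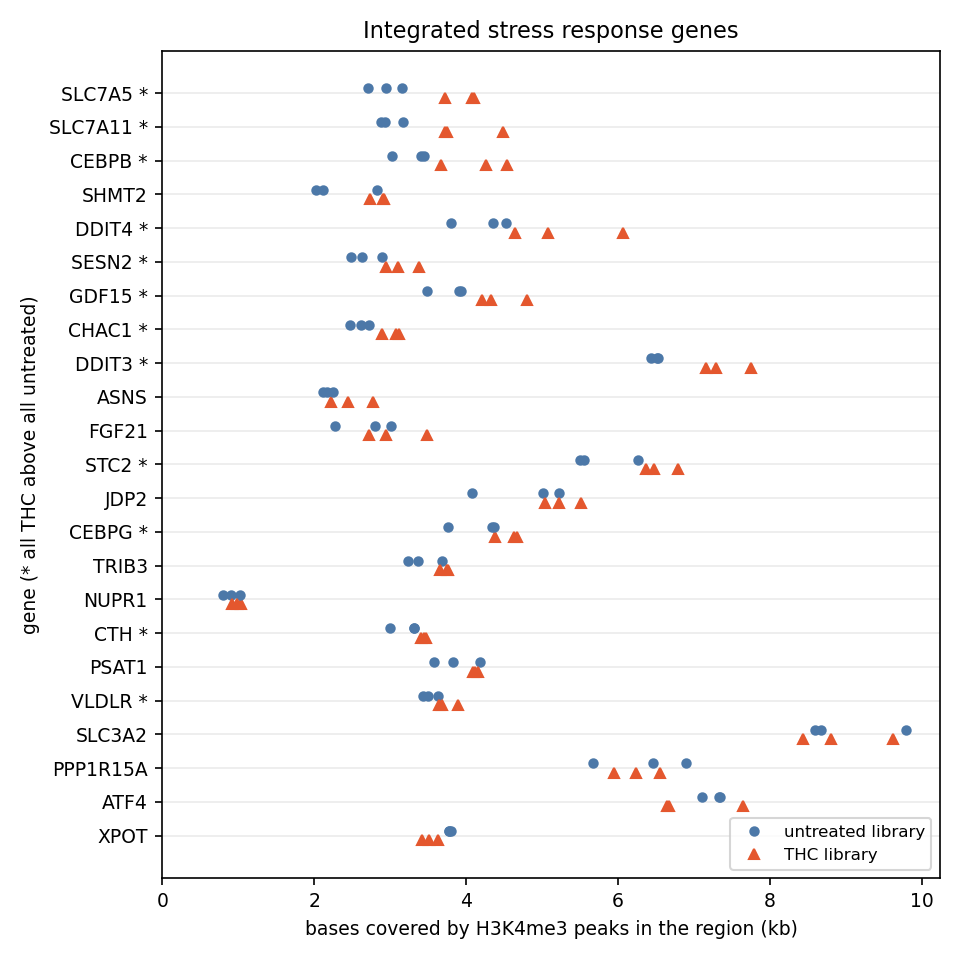
Bases covered by H3K4me3 peaks (kb, horizontal axis) at the 23 integrated stress response genes with a region in all 6 libraries, 1 point per library, sorted by the mean log2 difference between THC and untreated. Stars mark the 12 genes whose 3 THC libraries all lie above the 3 untreated libraries; SLC7A5 and SLC7A11 are at the top and XPOT is at the bottom.

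Promoter letters were counted for the same genes. The letters of 14 motifs were searched on both strands in the 300-base promoters, which run from 250 bases before the start to 50 after it. TGATGNAA was in 2 of 11 integrated stress response genes at wider regions (18.2%) and in 4 of the 9 at regions that were not wider (44.4%), among them ASNS and SLC3A2. Its share was 2.61% of genes at regions of all 6, 3.55% at wider regions and 4.46% of all 27195 genes in the table. CCAAT was in 9 of the 11 (81.8%) and in 2 of the 9 (22.2%), with 41.8% at regions of all 6, 41.3% at wider regions and 39.7% of all genes. The CCAAT counts were picked out after all motifs were seen. At wider regions as a whole the GC box GGGCGG was in 81.3% of genes, against 75.2% at regions of all 6 and 48.4% of all genes. The sterol element TCACNCCAC was in 1.51% of genes at wider regions, 1.38% at regions of all 6 and 1.39% of all genes. For the remaining motifs the 3 shares are given in the same order. They were 8.51%, 7.6% and 14% for the TATA box (TATAAA), 3.1%, 3.68% and 2.25% for the cyclic AMP element (TGACGTCA), and 35.8%, 39.7% and 28.4% for its core TGACG, which also counts each full element. The AP-1 element (TGANTCA) was in 7.45%, 6.94% and 9.33%, the E-box (CACGTG) in 13.7%, 12% and 8.79%, and a form of the NF-kB element (GGGANTTCC) in 1.68%, 2.9% and 2.22%. The letters CATG repeated after a gap of 3 bases were in 0.355%, 0.135% and 0.309%. They were searched as a p53 pattern but are not the p53 element, so these shares do not count p53 sites. The NRF1 palindrome was in 12.1%, 13.4% and 6.99%, and the ETS element (CCGGAAG) in 19.4%, 21.8% and 12.2%. The NRF2 core (TGACNNNGC) was in 18.4%, 18.9% and 16.1%. A match of letters is not evidence of binding.

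Mitosis had the largest share of members at narrower regions. For comparison with this and the next lists, 9.04% of all 15688 genes were wider and 3.56% narrower. Of 26 mitosis genes 1 (TTK) was wider and 4 (CDC20, AURKB, CCNA2 and CENPF) were narrower, with a median width difference of −0.0439 on the log2 scale. In RNA 24 members fell at 24 h, against 51.7% of all 13753 tested genes. AURKB, the kinase of the chromosomal passenger complex, had 3285, 4249 and 4236 bp untreated and 3008, 3150 and 3053 bp with THC, and CCNA2 (cyclin A2) had 4038, 4351 and 4379 bp against 3590, 3834 and 3933 bp. MKI67, the proliferation marker, overlapped by the width of 1 untreated library, with 6220, 4967 and 6112 bp against 4955, 4949 and 5026 bp. Of 26 S phase genes 3 were wider and 1 was narrower. Of 19 p53 targets 5 were wider and 1 narrower. The 5 were CCNG1 (3816, 3850 and 3899 bp against 4710, 5187 and 4448 bp), PLK3 (2585, 2576 and 2654 bp against 3015, 3459 and 4338 bp), XPC and the stress genes GDF15 and SESN2. CDKN1A, the p21 inhibitor, was not separated (3435, 3792 and 3037 bp against 3191, 3737 and 3293 bp) although its RNA rose from 4.28 ± 0.203 to 219 ± 7.3 TPM at 24 h.

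Lipid genes carried the mark in both groups while the RNA of most fell. Of 20 cholesterol synthesis genes 2 (MVD and SQLE) were wider and 0 narrower, and all 20 fell in RNA at both times. Among all 13753 tested genes 51.7% fell at 24 h and 33% at 72 h. Over all 15688 genes 9.04% were wider and 3.56% narrower. Of 16 fatty acid genes 3 (SCD, ELOVL6 and ACSS2) were wider and 0 narrower. SCD, the stearoyl-CoA desaturase, had 2674, 2668 and 2539 bp untreated and 2994, 2909 and 3709 bp with THC (limma, adjusted p = 0.622), while its RNA fell from 206 ± 5.87 to 8.63 ± 0.338 TPM at 24 h and 8.59 ± 0.701 TPM at 72 h (limma, adjusted p = 1.38e-11 and 2.03e-11). FASN (4475, 4967 and 3829 bp against 4454, 4764 and 4698 bp), INSIG1 (3868, 3540 and 3794 bp against 3848, 3954 and 3962 bp) and the regulators SREBF1 (7848, 7492 and 8259 bp against 7774, 8220 and 8325 bp) and SREBF2 (4179, 3798 and 3648 bp against 3721, 3604 and 4289 bp) overlapped between the groups. Of 14 cholesterol uptake and regulation genes 2 (INSIG2 and NPC1) were wider and 1 was narrower.

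Among chromatin genes, ARID1A, the SWI/SNF subunit in the title of the series, overlapped between groups with 10184, 10900 and 10039 bp against 9791, 10439 and 10209 bp. Its RNA fell from 51.2 ± 1.86 to 18.6 ± 1.3 TPM at 24 h and 33.8 ± 2.04 TPM at 72 h (limma, adjusted p = 2.20e-08 and 1.40e-05). The difference in width was −0.03 ± 0.053 (SE) on the log2 scale. Of 25 SWI/SNF genes 1 (BRD9) was wider and 0 narrower, against 9.04% and 3.56% of all 15688 genes. Of 20 genes that write, remove or read H3K4 methylation, KDM5B was wider and KDM1A narrower. KDM5B, a demethylase of H3K4me3 itself, had 6670, 6745 and 6757 bp untreated and 7696, 7910 and 7814 bp with THC (limma, adjusted p = 0.42). Its RNA rose from 9.84 ± 0.899 to 22.4 ± 0.715 TPM at 24 h and 20.4 ± 0.693 TPM at 72 h (limma, adjusted p = 1.57e-07 and 4.30e-07).

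In each of the other lists at most 4 members were wider and at most 2 narrower. The shares of all 15688 genes were 9.04% and 3.56%. Wider and narrower members numbered 2 and 1 of 18 for the unfolded protein response, 2 and 0 of 18 for NRF2 targets and iron, 2 and 2 of 17 for the interferon response, 1 and 0 of 12 for NF-kB and inflammation, and 1 and 0 of 14 for AP-1 and invasion. They numbered 1 and 0 of 22 for nuclear oxidative phosphorylation, 2 and 0 of 22 for glycolysis and hypoxia, 1 and 1 of 25 for ribosomal proteins, and 1 and 0 of 23 for autophagy and lysosome. Among the carcinoma markers 4 of 18 (CLDN3, ESRP1, KRT18 and KRT7) were wider and OVOL1 was narrower, and of 4 neuronal genes TUBB3, a tubulin, was wider. HERPUD1 of the unfolded protein list had 3511, 3354 and 3446 bp against 3810, 4167 and 4307 bp, with RNA rising from 39.4 ± 0.59 to 298 ± 8.56 TPM at 72 h.

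**Figure D4:**
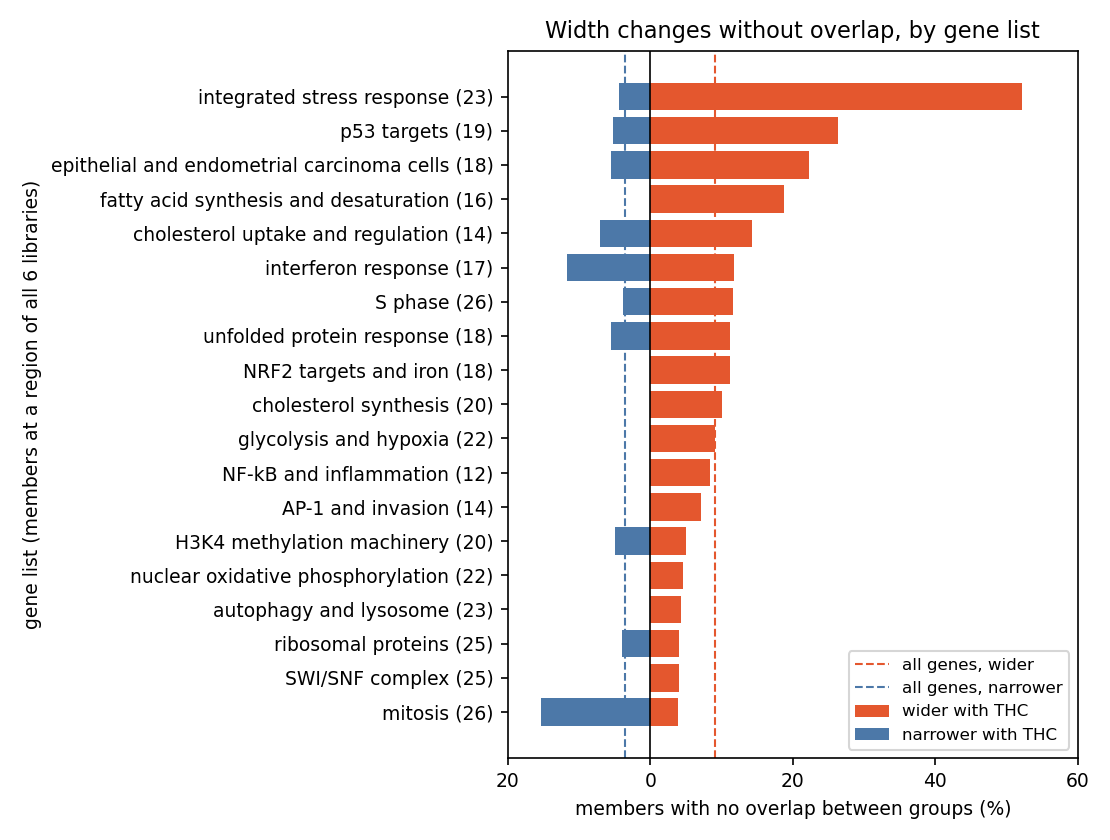
Percent of each list's members at a region of all 6 libraries (number in brackets) whose H3K4me3 was wider (right) or narrower (left) in all 3 THC libraries than in all 3 untreated libraries, for lists with at least 10 such members. Dashed lines give the same over all 15688 genes, 9.04% wider and 3.56% narrower; the integrated stress response has 12 of 23 wider and mitosis has the largest narrower share, 4 of 26.

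Genes with the largest RNA rises were at wider regions more often than other genes. Genes that fell at least 2-fold were at narrower regions somewhat more often than genes without a call, with few genes in the class of largest falls. These classes of RNA change were added after the data were seen, and no test was made of them. At 24 h, 139 genes rose at least 4-fold on the log2(TPM + 1) scale; of the 100 of them at a region of all 6, 26 (26%) were wider and 2 (2%) narrower. Of 400 genes up 2- to 4-fold 14.5% were wider, and of 2434 genes without a call 8.42%. At 72 h 28 of 96 genes up at least 4-fold (29.2%) were wider and 0 narrower. Of 75 genes down at least 4-fold at 24 h 1 was wider and 3 (4%) were narrower, and of 73 at 72 h 4 and 4 (5.48%). Of 1131 genes down 2- to 4-fold at 24 h 8.13% were wider and 4.24% narrower. Of 551 such genes at 72 h 7.99% were wider and 6.9% narrower. Among genes without a call 3.49% were narrower at 24 h and 3.55% at 72 h. Across 11316 genes the width difference and the RNA change had a Pearson correlation of 0.0583 at 24 h and 0.0829 at 72 h (Spearman 0.0384 and 0.0554); genes are not independent replicates. The labels do not say at which time the H3K4me3 cells were taken.

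**Figure D5:**
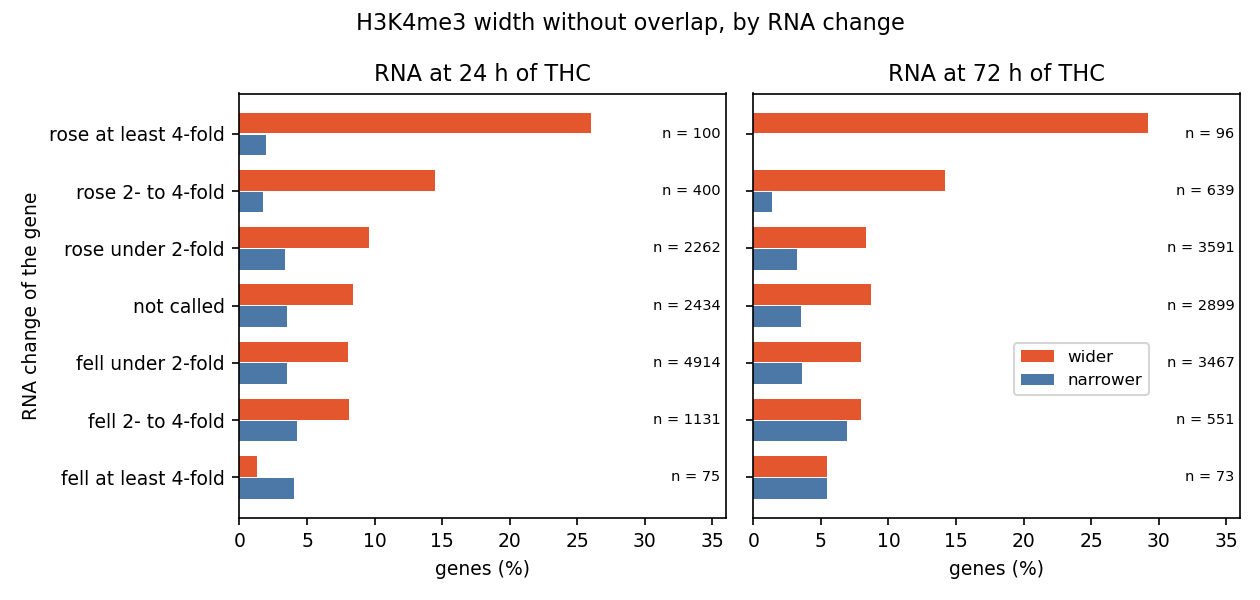
Percent of genes (horizontal axis) at wider (upper bars) and narrower (lower bars) H3K4me3 regions for classes of RNA change at 24 h and 72 h, with the number of genes at a region of all 6 libraries. The share at wider regions is 26% and 29.2% for genes up at least 4-fold and 8.42% and 8.73% for genes without a call.

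Of the genes up at least 4-fold at either time, 143 lay at a region of all 6. Of these 40 (28%) were wider and 2 narrower, against 9.04% and 3.56% of all 15688 genes. The following 5 were picked after their values were seen. MT1X, a zinc-binding metallothionein, had 1952, 2225 and 2108 bp untreated and 2850, 3830 and 3970 bp with THC, a difference of 0.75 ± 0.133 (SE) on the log2 scale (limma, adjusted p = 0.364), and RNA of 49.4 ± 5.88, 192 ± 3.3 and 320 ± 63.8 TPM untreated, at 24 h and at 72 h. THEMIS2, a signalling adaptor, had 1759, 2428 and 2175 bp against 3491, 3337 and 3224 bp, and RNA of 4.17 ± 0.36, 13.6 ± 0.719 and 25.8 ± 0.457 TPM. NR4A1, an immediate early nuclear receptor, had 1293, 1551 and 1118 bp against 2154, 1822 and 2136 bp, and RNA of 4.99 ± 0.439, 30.8 ± 3.65 and 22.3 ± 3.25 TPM. MXD1, a MYC antagonist, had 4909, 5513 and 5245 bp against 5686, 6296 and 6479 bp, and RNA of 2.18 ± 0.11, 14.4 ± 1.21 and 13.1 ± 0.0532 TPM. LAMB3, a laminin chain, had 4756, 4488 and 4902 bp against 5132, 6519 and 6136 bp, and RNA of 112 ± 4.35, 584 ± 54.1 and 298 ± 12 TPM. In each of these the lowest THC library lay above the highest untreated one.

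Large RNA rises also occurred where width overlapped between the groups or no region was found. HMOX1, the heme oxygenase, had 3813, 3903 and 3478 bp against 3671, 3512 and 3963 bp while its RNA rose from 10.9 ± 0.503 to 231 ± 6.23 TPM at 72 h. PLAUR, the urokinase receptor, had 3073, 2856 and 2551 bp against 3470, 3010 and 3000 bp while its RNA rose from 28 ± 0.928 to 1077 ± 59 TPM at 24 h. RSAD2, an interferon-induced antiviral enzyme, had 2604, 2796 and 2802 bp against 2637, 2715 and 2633 bp. CD68 RNA rose from 0.249 ± 0.0544 to 132 ± 4.68 TPM at 24 h, but its region of 7718, 9504 and 8120 bp untreated and 5514, 9255 and 8356 bp with THC also covers EIF4A1, a translation factor, so the mark there cannot be given to CD68 alone. LCN2, the siderophore-binding lipocalin, had a small region of 968, 0 and 639 bp against 385, 974 and 924 bp. Of the 139 genes up at least 4-fold at 24 h, 30 (21.6%) had no region near the start used, against 6.41% of genes without a call; among them were ATF3, the chemokine CCL5 and the collagenase MMP1. TREM1, a myeloid receptor, had none either, with RNA of 0.0161 ± 0.028 TPM untreated and 17.8 ± 1.48 TPM at 72 h. The cannabinoid receptor genes CNR1 and CNR2 and the related GPR55 had no region in any library, and their mean RNA stayed at or under 1.48 TPM in each group, with CNR1 listed at 0.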

How the data were processed

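The members and gene lists were chosen with earlier results of these data known. The 6 H3K4me3 lists and 9 ATAC-seq lists hold peaks called per library by the authors, with a score, a fold and −log10 p and q values deposited for each peak; per the labels' protocols H3K4me3 was profiled by CUT&RUN, and per the submitters' processing notes the build was GRCh38 and the tools include Bowtie2, Picard, MACS3 and MACS2 2.2.7.1. No source used here says whether peak calling used a control. An IgG sample was not analysed here. RNA values are TPM deposited by the authors, named Salmon per the submitters' processing notes. Read depth is unknown for all files.

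Peaks on chromosomes 1 to 22 and X were merged over the 6 lists; the deposited q values served only to rank or filter peaks within a list. Width was tested with limma 3.58.1 (R 4.3.3, eBayes with trend, Benjamini-Hochberg adjustment) over the 22662 regions of all 6 libraries, and RNA with limma on log2(TPM + 1) over 13753 genes with a mean of at least 1 TPM in 9 libraries. Both fits were run on simulated data with independent noise and no shift of whole libraries, so those runs say nothing about depth or enrichment. Per-library totals were compared with an exact permutation test. Gene starts came from the RefSeq promoter table of GRCh38.p14 for 27195 genes and from both gene ends for 10951 whose strand was not given; a gene with several regions took the one with the largest mean width. The table holds no promoter for some genes. Named genes were the 8 longest gained and lost regions with a gene start, the 3 longest without, up to 5 with the largest RNA change, and 19 genes of interest; the width rule found no called region, so widest differences and list members were named after their values were seen. Alternatives covered q thresholds, merging, list length, width measure, scaling, pseudocount, filters, a replicate block and leaving out each replicate. A few gene results are not reported here.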

Additional observations from a re-analysis of the deposited data

How the results depend on the processing

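Gained and lost regions numbered 305 and 184. With a −log10 q of at least 5 the gained were 195, and with at least 10 they were 141 and the lost 119. With 2 of 3 against 0 of 3 libraries they were 1335 and 1058, and with 1 library left out gained ranged from 420 to 941 and lost from 250 to 515. Width calls by limma (0 wider, 0 narrower) became 1 and 0 with a −log10 q of at least 5 or with peaks within 500 bp joined, 5 and 0 with at least 10, 34 and 5 for the longest peak, 1 and 1 with a mean of at least 1000 bp or after centring, 2 and 2 without a filter, and stayed 0 and 0 with each library left out. With the replicate block they were 0 and 0; same-numbered libraries correlated at 0.04, 0.01 and 0.03 in their deviations, so the numbers do not pair them. Regions wider without overlap ranged from 2373 to 4208 and narrower from 1747 to 3086 with 1 library left out, against 1775 and 1160 with all 6; narrower were 749 with a −log10 q of at least 10. These measures, the counts for the stress list (12 to 15 with 1 library left out) and for genes up at least 4-fold at 24 h or 72 h (40 of 143 wider; 38 to 65 with 1 left out, the highest without THC replicate 1, where 18.1% of all genes were wider against 9.04% with all 6) were added after seeing the data. Gene starts marked with THC alone were 51 with the start covered and 54 within 5000 bp, and untreated alone 7 and 26. Without a filter on TPM, 12 genes at gained regions fell at 24 h instead of 6, and at lost regions 2 rose at 24 h, 2 rose at 72 h and 2 fell at 72 h instead of 1 each. CDS2 RNA at 24 h, −0.20 in the report's fit, was 0.01 after centring (adjusted p = 0.775), and CTH at 72 h, KCNG1 and FOXP1 at 24 h and AURKB at 72 h lost their RNA call under some alternatives. Depth is unknown, and 3 libraries a group limit what width can show; peak width also moves with enrichment, and no per-library measure of that is in the lists beyond the peaks themselves.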
